A study of Homo sapiens with 24 samples.

Results

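The genes of oxidative phosphorylation were followed in 24 RNA-seq libraries from 2 human tumour lines, A549 and H1299, both grown from non-small cell lung carcinoma. The set held 48 of the 59385 gene symbols counted: the 13 mRNAs encoded in mitochondrial DNA, chosen by the prefix MT-, and 35 nuclear genes for respiratory subunits, chosen by name. By complex, the nuclear genes were 14 of complex I, 4 of complex II, 6 of complex III, 10 of complex IV and 1 of complex V, and the mitochondrial mRNAs were 7, 0, 1, 3 and 2. Both lines had been stably transduced with lentivirus, so every library, controls included, came from transduced cells. The controls carried an empty vector with the FLAG tag (Ctr), and the other cells overexpressed SIRT6, an NAD-dependent deacylase of chromatin. That SIRT6 was wild type (WT), a triple mutant deficient in acetylation (K3R) or a triple mutant that imitates acetylation (K3Q). No deletion of the cells' own SIRT6 is named, and neither the changed lysines nor the number of clones behind a line is given. Each of the 8 groups had 3 libraries: library 1-1 is biological replicate 1 from batch 1, library 1-2 the same replicate from batch 2, and library 2-2 biological replicate 2, also from batch 2. Whether 1-1 and 1-2 came from one culture is not stated, so part of the spread behind each p-value may be technical.

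Oxidative phosphorylation passes electrons from NADH and succinate along complexes I to IV to oxygen and uses the proton gradient so formed to drive ATP synthase, complex V. Its subunits come from both genomes, except that complex II is wholly nuclear. Mitochondrial mRNAs are cut from long transcripts of the circular genome, nearly all of them read from one strand, while each nuclear subunit has its own promoter. Such promoters often have sites for NRF1, the ETS factor GABP, YY1 or oestrogen-related receptors.

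The longest stretch shared by a pair of mitochondrial members is printed, because the counts of that pair cannot be fully separated there. On GRCh38 the last 46 bases of MT-ATP8 are the first 46 of MT-ATP6, both on the plus strand. Capitals mark the start codon of MT-ATP6.
MT-ATP8 and MT-ATP6 overlap, chrM:8527-8572: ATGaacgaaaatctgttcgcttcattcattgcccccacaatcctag
MT-ND4L and MT-ND4 also share an RNA and overlap by 7 bases (chrM:10760-10766). MT-ATP6 and MT-CO3 overlap by 1 base (chrM:9207). MT-ND6 is the one member read from the minus strand (chrM:14149-14673). MT-ND5, on the plus strand, ends at the base before it, 14148. The strand setting of the counting is not given, so whether counts of MT-ND6 include RNA of the plus strand is not known.

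The motifs of these factors were searched in the promoters of the nuclear members. Promoters of 300 bases (250 before the start and 50 after, RefSeq, GRCh38.p14) were at hand for 29 of the 35 nuclear members, and 15 of them (51.7%) held at least 1 of 4 motifs, searched on both strands, against 27.0% of 12132 promoters of tested genes and 19.0% of all 27305 promoters. The NRF1 motif GCATGCGC was in 20.7% of the members' promoters, 5.23% of those of tested genes and 3.27% of all. The ETS core CCGGAAG was in 37.9%, 17.8% and 10.7%, the YY1 core AAGATGGC in 13.8%, 4.88% and 3.03%, and the oestrogen-related receptor motif AAGGTCA in 13.8%, 2.54% and 3.97%. A match describes the letters and does not show a bound site. The sites below are from the nuclear members that differed most between the lines, in each direction, among those with a motif before the start. NDUFA1 and UQCRQ were called higher in A549, by less than any other nuclear member so called, and SDHD and NDUFS7 lower. The calls of SDHD and NDUFS7 were kept in 12 of 12 alternatives, that of NDUFA1 in 5 and that of UQCRQ in 6. With library totals as the only scaling NDUFA1 was at 0.11 (adjusted p = 0.385) and UQCRQ at 0.08 (adjusted p = 0.462), as log2 differences. The start meant here is that of the RefSeq entry. GENCODE 29 places the starts of these genes further upstream, so all the sites but the NRF1 motifs of SDHD lie inside the gene as annotated there. Each line gives 30 bases of the plus strand with the motif, or its reverse complement, in capitals.
NDUFA1, ETS core 47 bases before the start, chrX:119871774-119871803: ttccgtcgcttCTTCCGGagccgtacgtgg
UQCRQ, ETS core 54 bases before the start, chr5:132866577-132866606: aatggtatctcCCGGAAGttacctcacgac
SDHD, 2 overlapping NRF1 motifs from 110 bases before the start, chr11:112086753-112086782: agctgtgtttGCGCATGCGCgacgggtgtg
SDHD, ETS core 77 bases before the start, chr11:112086785-112086814: ccgcctctcgaCTTCCGGttcacccagcat
NDUFS7, oestrogen-related receptor motif 171 bases before the start, chr19:1383725-1383754: gcgcactccgaTGACCTTtccgcctcgggt
NDUFS7, NRF1 motif 73 bases before the start, chr19:1383823-1383852: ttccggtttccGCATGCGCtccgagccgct

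Libraries held 14943189 to 22856407 counts. SIRT6, the gene introduced, was at 22.1 to 46.3 CPM (counts per 1e+06 counts of the library) in the 6 Ctr libraries and at 1370 to 14552 CPM in the 18 others, as labelled. A549 libraries had the epithelial markers EPCAM (4.14 to 26.8 CPM), CDH1 and KRT19, while in H1299 EPCAM was at most 0.325 CPM and KRT19 was at 0 in 8 of 12 libraries. KRT8 was present in both lines, at 3167 to 7781 CPM in A549 and 257 to 487 CPM in H1299. The 5 epithelial markers summed to 4720 to 11494 CPM in A549 and 664 to 1143 CPM in H1299. What part these differences have in the results between the lines was not tested. Immune markers summed to at most 7.77 CPM, endothelial ones to at most 1.32 CPM and fibroblast ones to at most 21.8 CPM. A549 K3Q libraries 1-2 and 2-2 differed far less than any other pair of one group (chi-square per degree of freedom 2.49 against 14.4 or more), although labelled as different biological replicates. These are bulk libraries, in which fewer cells of a type and less RNA per cell cannot be told apart.

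The mitochondrial mRNAs took up a larger share of the RNA in A549 than in H1299, and the nuclear subunits did not follow. The 13 mRNAs made up 4.87% to 6.34% of all counts in the 12 A549 libraries (median 5.56%) and 2.07% to 3.47% in the 12 H1299 libraries (median 2.59%), with no overlap. The 35 nuclear members summed to 3685 to 4366 CPM in A549 and 4370 to 5261 CPM in H1299, so here H1299 was the higher line, with the nearest libraries almost level. That order holds for CPM, which scale by library totals alone. With the scaling used in the tests (TMM), the median log2 difference of the nuclear members, A549 Ctr over H1299 Ctr, was 0.03. The ratio of the mitochondrial to the nuclear sum was 11.1 to 15.1 in A549 and 3.97 to 7.93 in H1299. A549 Ctr had the lowest mean share of its line, 5.19% ± 0.38 (SD, n = 3), and H1299 Ctr the highest of its own, 2.88% ± 0.52 (SD, n = 3).

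**Figure D1:**
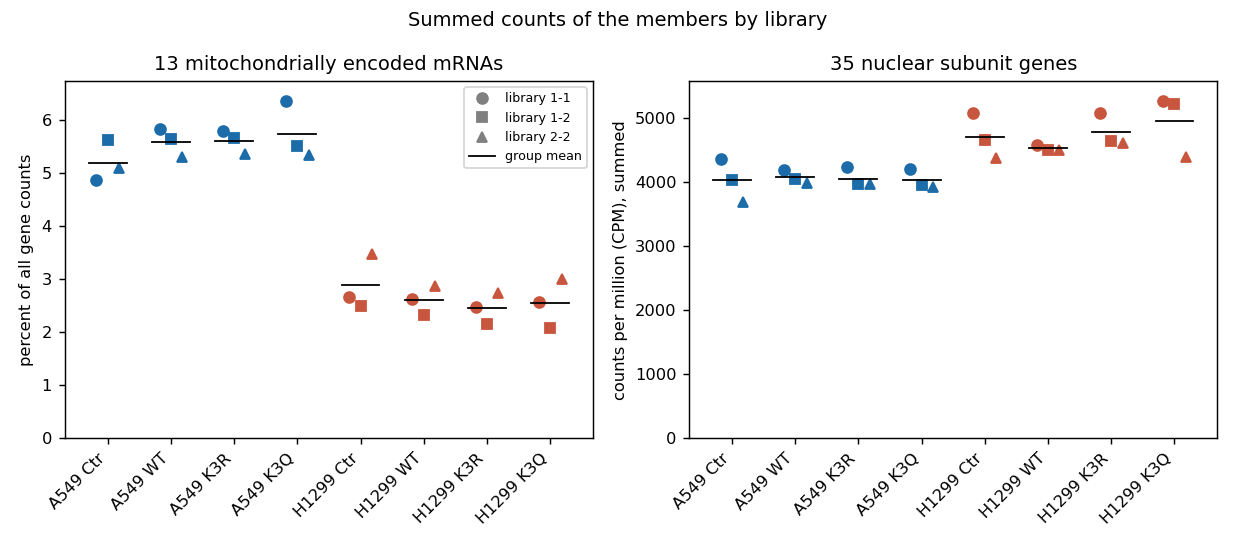
Left, percent of all gene counts from the 13 mitochondrial mRNAs; right, summed CPM of the 35 nuclear members, for each library (points, shaped by library position) with the group mean (line). A549 libraries lie between 4.87% and 6.34% on the left and H1299 libraries between 2.07% and 3.47%. On the right, where values are scaled by library totals alone, the order of the lines is turned.

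Among the mitochondrial mRNAs the order of levels, given as CPM per kilobase of gene, began and ended alike in both lines. MT-CO1, the catalytic core of cytochrome c oxidase, was first in both, with medians of 9801 in A549 and 4427 in H1299. In A549 it was followed by MT-CO3 (9444), MT-CO2 (8674) and MT-ATP6 (7564), and the ranges of these neighbours over the 12 libraries overlapped. In H1299 the following mRNAs were MT-CO2 (4006), MT-ATP6 (3598) and MT-CO3 (3415), also with overlapping ranges. The other subunits of complexes I and III lay lower, from MT-ND4 at 4461 in A549 and 2165 in H1299 down to MT-ND5 (1560 and 934) and MT-ND6 (1526 and 992). MT-ATP8 was last in both, at 277 and 119 CPM per kilobase. Although it is read from the same RNA as MT-ATP6, its level per length was 3.17% to 4.34% of that of MT-ATP6 in A549 and 2.38% to 4.07% in H1299. For the other pair on one RNA, MT-ND4L was at 57.6% to 134% of MT-ND4 in A549 and at 69.6% to 129% in H1299. How the counting treated reads over the shared bases is not given in the sources used here.

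In the Ctr cells all 13 mitochondrial mRNAs had a positive difference, A549 over H1299, and 11 of them passed the edgeR quasi-likelihood test at an adjusted p under 0.05. Of all 18102 genes tested, 31.8% were called higher in A549 and 32% lower, and the count of 11 is read against those shares. The median log2 difference was 0.95 over the 13 mRNAs, 0.03 over the nuclear members and -0.03 over all genes. MT-CO3, a core subunit of cytochrome c oxidase, gave 7106, 7450 and 6320 CPM in A549 libraries 1-1, 1-2 and 2-2 and 2815, 2882 and 3321 CPM in those of H1299. Its log2 difference was 1.38 ± 0.11 (SE, adjusted p = 7.49e-10), and the groups did not overlap. MT-ND1, in the membrane arm of complex I, gave 2337, 3133 and 3018 CPM against 1361, 1037 and 1801 (log2 1.18 ± 0.21, adjusted p = 4.00e-05). MT-CO1 gave 14819, 15706 and 14467 CPM against 6585, 6547 and 9588 (log2 1.15 ± 0.16, adjusted p = 2.17e-06). The groups were apart for both genes, and in both the highest H1299 library was 2-2.

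The remaining calls were MT-CO2 (1.12), MT-ATP6 (1.11), MT-ATP8 (1.01), MT-CYB (0.95), MT-ND4 (0.82), MT-ND4L (0.72), MT-ND2 (0.68) and MT-ND3 (0.67), all log2 differences. By complex, the 3 mRNAs of complex IV had a median of 1.15, the 2 of complex V 1.11 (MT-ATP6) and 1.01 (MT-ATP8), MT-CYB of complex III 0.95 and the 7 of complex I 0.68. MT-ND5 (0.42 ± 0.21, adjusted p = 0.0779) and MT-ND6 (0.41 ± 0.23, adjusted p = 0.12) did not pass. In H1299 Ctr both were high in library 2-2, where MT-ND5 stood at 2692 CPM and MT-ND6 at 892 CPM, inside or above the A549 Ctr range of 2240 to 2802 and 702 to 794 CPM. Without that library all 13 passed, in a fit with no replicate block that kept A549 Ctr 2-2. In every H1299 group both genes were highest in library 2-2.

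Of the 35 nuclear members 10 were called higher in A549, 12 lower and 13 did not pass, close to the 31.8% higher and 32% lower over all genes, so the split is not a result about these genes as a group. UQCRC2 (chr16:21952660-21983660, plus strand), a core protein of complex III, was at 190, 175 and 175 CPM in A549 Ctr and 99.4, 104 and 94.3 CPM in H1299 Ctr (log2 1.03 ± 0.11, adjusted p = 6.17e-08). NDUFV2, an iron-sulfur subunit of complex I, had a similar difference (1.02 ± 0.32, adjusted p = 0.00754) at a low level, 1.74 ± 0.24 CPM (SD, n = 3) against 0.957 ± 0.108. NDUFB10, an accessory subunit of the complex I membrane arm, was at 114 ± 13.1 CPM (SD, n = 3) against 75.1 ± 15.8 (log2 0.78 ± 0.15, adjusted p = 0.000102). In all 3 genes the Ctr libraries of the lines did not overlap.

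In the other direction, SDHD (chr11:112086773-112120013, plus strand), a membrane anchor of succinate dehydrogenase, was at 35.9, 28.1 and 31.8 CPM in A549 Ctr and 78.5, 73.5 and 64.0 CPM in H1299 Ctr (log2 -1.01 ± 0.12, adjusted p = 2.83e-07). NDUFB5, of the complex I membrane arm, was at 19.1 and 20.0 CPM in A549 Ctr 1-1 and 2-2, lower still in 1-2, and at 37.7, 42.0 and 35.5 CPM in H1299 Ctr (log2 -0.93 ± 0.12, adjusted p = 4.90e-07). NDUFS7, which hands electrons to ubiquinone, was at 17.4 ± 1.32 CPM (SD, n = 3) against 36.7 ± 2.93 (log2 -0.91 ± 0.14, adjusted p = 9.53e-06). The Ctr libraries of the lines did not overlap in any of these 3 genes.

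Complex II, which has no mitochondrial subunit, had members called in both directions. The flavoprotein SDHA (log2 0.55 ± 0.13, adjusted p = 0.000811) and the anchor SDHC (0.58 ± 0.10, adjusted p = 2.02e-05) were higher in A549. The iron-sulfur subunit SDHB (-0.60 ± 0.13, adjusted p = 0.000385) and the anchor SDHD were lower. In CPM, each of the 4 genes separated all 12 A549 libraries from all 12 of H1299, whatever the construct: SDHA ran from 16.4 to 22.5 against 12.8 to 15.4, SDHC from 88.0 to 111 against 62.1 to 86.4, SDHB from 54.5 to 87.5 against 93.0 to 152, and SDHD from 27.3 to 40.0 against 58.3 to 78.5. Among all tested genes, 17.7% had every A549 library above every H1299 library and 24.2% had every one below.

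In complex IV, whose 3 mitochondrial subunits were all higher in A549, 5 of 10 nuclear subunits were lower and 1 was higher. Over all genes 32% were lower and 31.8% higher, and counts this small are not read as a result about the complex. The lower ones were COX6B1 (-0.54), COX5B (-0.49), COX4I1 (-0.42), COX7B (-0.36) and COX6C (-0.33), and COX5A (0.52) was higher, all log2 differences that passed. The call of COX7B was kept in 6 of 12 alternatives, and without A549 Ctr 2-2 it was at -0.21 (adjusted p = 0.215). NDUFA4, COX6A1, COX7C and COX8A did not pass. In complex III, UQCRC2 and UQCRQ (0.24) were higher, and UQCRB (-0.42) and the Rieske protein UQCRFS1 (-0.37) lower. In complex I, NDUFS8 (0.38) and NDUFA1 (0.28) were also higher, and NDUFA9 (-0.32) lower, the last kept in 7 of 12 alternatives. ATP5MC1, one of the genes of the ATP synthase c-ring, was higher (0.48). When libraries were scaled by their totals alone, the median of all genes moved to -0.19 and the nuclear calls became 7 higher and 15 lower. The mitochondrial calls were then still 11 higher.

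**Figure D2:**
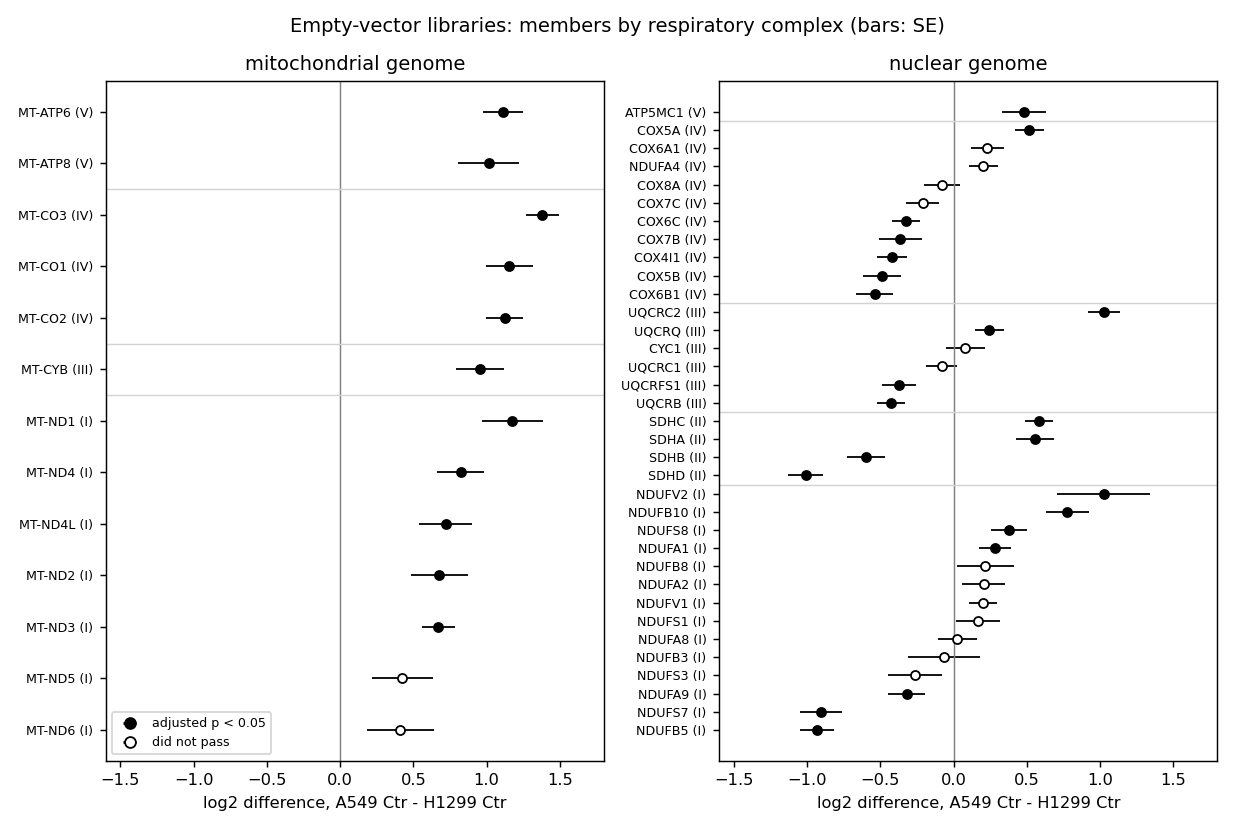
Log2 difference between A549 Ctr and H1299 Ctr (3 libraries each) for each member, with its complex in brackets, SE as bars, filled points for an adjusted p under 0.05 and open points for the rest. All 13 mitochondrial mRNAs lie to the right of 0, while the nuclear members run from SDHD at -1.01 to UQCRC2 at 1.03.

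Over all constructs, 10 of the 13 mitochondrial mRNAs had every A549 library above every H1299 library. MT-ND4, MT-ND5 and MT-ND6 overlapped. Of the 35 nuclear members, 5 were above in every library, 9 below and 21 overlapped. Among all tested genes the shares were 17.7% above and 24.2% below. With the WT, K3R or K3Q libraries of both lines in place of Ctr, all 13 mitochondrial mRNAs passed as higher in each comparison (background 31.6%, 32.2% and 31.7% of genes higher), with medians of 1.18, 1.24 and 1.24.

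Other mitochondrial genes were called in both directions between the Ctr cells, and the counts below stand against 31.8% of all genes higher and 32% lower. Those of the ribosomal proteins, the complex I subunits and the regulators are near these shares. The 2 mitochondrial ribosomal RNAs were both higher in A549, MT-RNR2 by 2.87 ± 0.24 on the log2 scale and MT-RNR1 by 1.53 ± 0.16. MT-RNR2 was at 7153 to 17849 CPM in A549 libraries and 1150 to 2079 CPM in those of H1299. Of 77 mitochondrial ribosomal protein genes tested, 20 were higher and 25 lower, with MRPL34 (-1.30) and MRPS22 (-1.20) the furthest. Of 48 assembly factors, 20 were higher and 9 lower, led by the complex IV factors COA3 (1.38) and PET117 (1.38). Of the 23 other complex I subunits 6 were higher and 8 lower (NDUFA12 at -0.87, NDUFA3 at 0.85), and of the 16 other complex V subunits 2 were higher and 9 lower (ATP5ME at -1.12, ATP5MJ at -0.97). Of 3 other complex III subunits 1 was lower (UQCRH at -0.60), and of 3 other complex IV subunits tested COX6B2 (2.42) was higher and COX7A2 (-0.82) lower. Among 16 regulators of these genes 4 were higher and 5 lower, the largest being PPARGC1A, a coactivator of mitochondrial biogenesis, at -3.19 ± 0.62, and GABPA at -0.99 ± 0.15. Of 17 genes for mitochondrial RNA processing 4 were higher and 2 lower (SLIRP at -1.06, FASTKD5 at 0.71), and of 13 genes of the tricarboxylic acid cycle 5 were higher and 3 lower (SUCLG2 at 0.95, IDH3A at 0.86). Among 3 hypoxia and tissue isoforms tested, COX6B2 and NDUFA4L2 (1.43) were higher.

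The nuclear genome also holds copies of mitochondrial genes, and 6 of the 11 tested were higher in A549. The largest was MTATP6P1 on chromosome 1 (log2 7.08 ± 0.38), at 216 to 406 CPM in A549 and 0.53 to 3.86 CPM in H1299. In the reference it differs from MT-ATP6 at 10 of 681 bases, so reads could be assigned to either, and the values of both genes are uncertain. Its counts were 4.80% to 7.17% of those of MT-ATP6 in A549. MTND2P28 followed (3.30 ± 0.41).

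Overlapping genes bear on some nuclear members, since the strand setting of the counting is not given. On GENCODE 29, 3700 of the 7533 exonic bases of NDUFS7 and 345 of the 2838 of SDHD lie over exons of other genes, among them TIMM8B for SDHD. For NDUFA1 it was 341 of 766 (RNF113A), for NDUFV2 771 of 2711, and for UQCRC2, NDUFB5, NDUFB10, SDHA and SDHB 0.

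No member was called in any SIRT6 construct against the empty vector. In A549 0 of 48 passed for WT, K3R or K3Q against Ctr, where 0.105%, 0.118% and 0.0248% of 16120 genes were called. At an unadjusted p under 0.05 there were 1, 0 and 2 members, against 1279, 1115 and 1390 of all 16120 genes, and DESeq2 called 0 in each. In H1299 0 of 48 passed as well, in a background of 4.05%, 3.25% and 0.0615% of 16262 genes. There 2, 3 and 6 members had an unadjusted p under 0.05, against 2849, 2867 and 1580 of all 16262 genes, and DESeq2 called 0, 1 and 0. The standard errors of single members had medians for K3R of 0.11 (A549) and 0.12 (H1299) over nuclear genes and 0.10 and 0.18 over mitochondrial ones, which limits the size of change that could be seen.

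In A549 the 13 mitochondrial mRNAs had positive differences under every construct, small and uncalled. Their medians were 0.14 for WT, 0.13 for K3R and 0.20 for K3Q, and those of the nuclear members 0.03, 0.03 and 0.05. The lowest p for WT belonged to MT-ND4 (0.21 ± 0.09, adjusted p = 0.613), CYC1 (0.24 ± 0.12, adjusted p = 0.672) and MT-ND2 (0.15 ± 0.09, adjusted p = 0.747). For K3R they were MT-ND4 (0.19), MT-ATP8 (0.27) and NDUFS7 (0.27), with adjusted p from 0.799 to 0.819. For K3Q they were MT-ATP8 (0.45 ± 0.14, adjusted p = 0.376), MT-CO3 (0.25) and MT-ND6 (0.28). MT-ATP8 was at 37.4, 64.8 and 49.0 CPM in A549 Ctr and 53.6, 77.1 and 66.4 CPM in K3Q, higher in each matched library, and the groups overlapped. With the library number as a replicate block it passed (0.46, adjusted p = 0.0328), the only member to do so, where 0.893% of genes were called. K3Q 2-2 was almost the same library as K3Q 1-2. It deviated little with the other A549 2-2 libraries (correlations 0.0953 to 0.168). Its match with Ctr 2-2, and the block for K3Q, are therefore doubtful. The 3 comparisons share the Ctr libraries, and Ctr 1-1 had the lowest mitochondrial share of A549, 4.87%. The summed CPM of the 13 mRNAs was above that of the matched Ctr library in 8 of 9 pairs, the doubtful pair of K3Q 2-2 among the 8. Without Ctr 1-1 the mitochondrial medians were 0.08, 0.08 and 0.15, and without Ctr 1-2 they were 0.23, 0.24 and 0.31, in fits with no replicate block.

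In H1299 the mitochondrial medians were negative, -0.14 for WT, -0.16 for K3R and -0.10 for K3Q, against nuclear medians of -0.01, 0.06 and 0.17, again on a shared set of Ctr libraries. Ctr 2-2 had the highest mitochondrial share of H1299, 3.47%. The summed CPM of the 13 mRNAs was below that of the matched Ctr library in 9 of 9 pairs. Without Ctr 2-2 the mitochondrial medians were 0.02, -0.01 and 0.06, in a fit with no replicate block that leaves the 2-2 libraries, high in every H1299 group, on the construct side only. For WT the lowest p belonged to ATP5MC1 (-0.32 ± 0.12, adjusted p = 0.167), COX5B (-0.28) and NDUFA1 (-0.22). With the replicate block ATP5MC1 passed for WT against Ctr (-0.31, adjusted p = 0.0254), where 9.75% of genes were called. For K3R they were CYC1, cytochrome c1 of complex III (0.40 ± 0.12, adjusted p = 0.101), MT-ND4L (-0.44 ± 0.18, adjusted p = 0.206) and NDUFV2 (0.74 ± 0.33, adjusted p = 0.267). With the replicate block CYC1 (adjusted p = 0.0306) and MT-ND4L (adjusted p = 0.00463) passed, where 8.56% of genes were called. For K3Q they were UQCRC1 (0.30 ± 0.11, adjusted p = 0.383), NDUFS7 (0.33) and SDHB (0.31), of which 0 passed with the block.

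**Figure D3:**
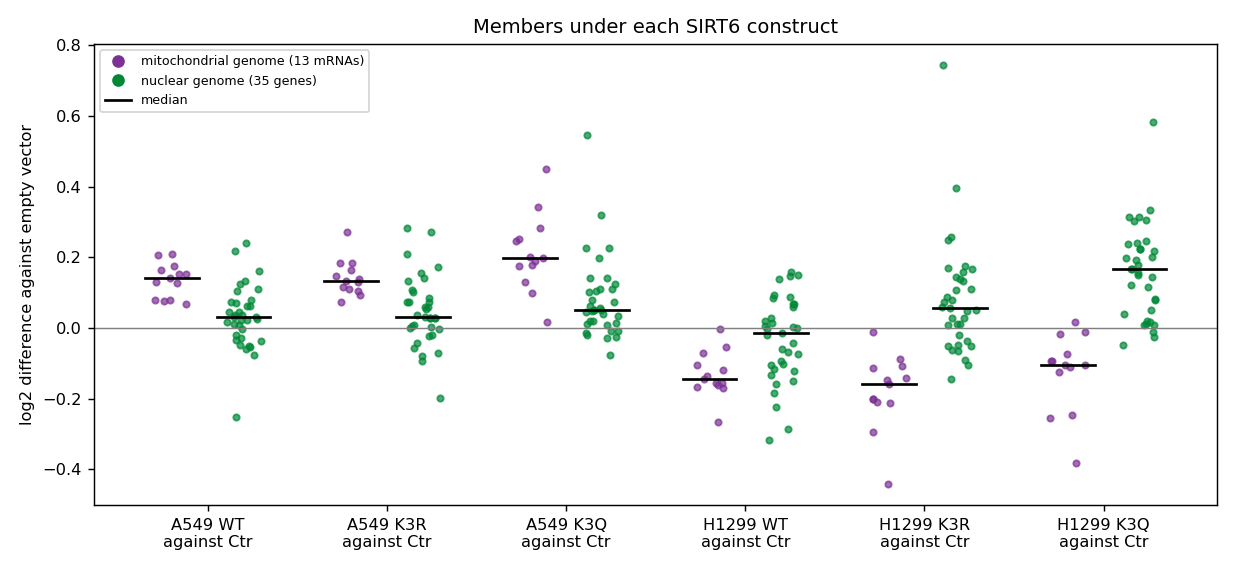
Log2 difference against the empty vector for the 13 mitochondrial mRNAs and the 35 nuclear members (points) under each construct in each line, with the median as a line. No point passed the test; the mitochondrial medians lie between 0.13 and 0.20 in A549 and between -0.16 and -0.10 in H1299.

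Whether the constructs acted differently in the 2 lines was tested directly, and 0 of 48 members passed for WT, K3R or K3Q (background 0.365%, 0.238% and 0.011% of 18102 genes). At an unadjusted p under 0.05 there were 1, 1 and 2 members, against 1421, 1293 and 922 of all 18102 genes, and DESeq2 called 0, 0 and 0. The median of the mitochondrial differences, A549 minus H1299, was 0.29, 0.28 and 0.28, with standard errors of single mRNAs near 0.23. Without H1299 Ctr 2-2 the medians were 0.14, 0.14 and 0.20, again with the other 2-2 libraries unmatched. The opposite signs of the 2 lines are therefore values that did not pass a test of the difference.

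Among the SIRT6 forms, 1 member was called. In A549, K3R against WT, K3Q against WT and K3Q against K3R gave 0 of 48 (background 0%, 0.0062% and 0.0062%), with 0, 1 and 0 members at an unadjusted p under 0.05 and 0 by DESeq2. In H1299, K3R against WT gave 0 of 48, where 0% of genes were called, and K3Q against K3R 0 of 48, where 0.449% were. Each had 1 member at an unadjusted p under 0.05, and DESeq2 called 0. Over all genes K3R against WT had 116 genes in A549 and 486 in H1299 at an unadjusted p under 0.05. K3Q against WT had 1041 in A549, and K3Q against K3R had 708 in A549 and 1938 in H1299.

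K3Q against WT in H1299 called ATP5MC1 alone, where 3.46% of 16262 genes were called. The gene (chr17:48892765-48895871, plus strand) encodes the proton-carrying c subunit of ATP synthase. It was at 106, 129 and 114 CPM in WT libraries 1-1, 1-2 and 2-2 and at 150, 161 and 143 CPM in K3Q, and the groups did not overlap. The log2 difference was 0.46 ± 0.12 (adjusted p = 0.0484), higher in 3 of 3 matched libraries. H1299 Ctr, at 151, 154 and 134 CPM, overlapped K3Q, and K3R, at 135, 138 and 119 CPM, overlapped WT and Ctr. The call was lost without a batch term (adjusted p = 0.0808), with library totals as the only scaling (adjusted p = 0.0621) and on leaving out any 1 library of the 2 groups except K3Q 2-2 (adjusted p from 0.0589 to 0.211), with log2 differences of 0.37 to 0.55. SIRT6 itself was also higher in K3Q than in WT in H1299 (log2 1.78 ± 0.35, adjusted p = 0.0183), so the form of SIRT6 and its amount cannot be told apart here.

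**Figure D4:**
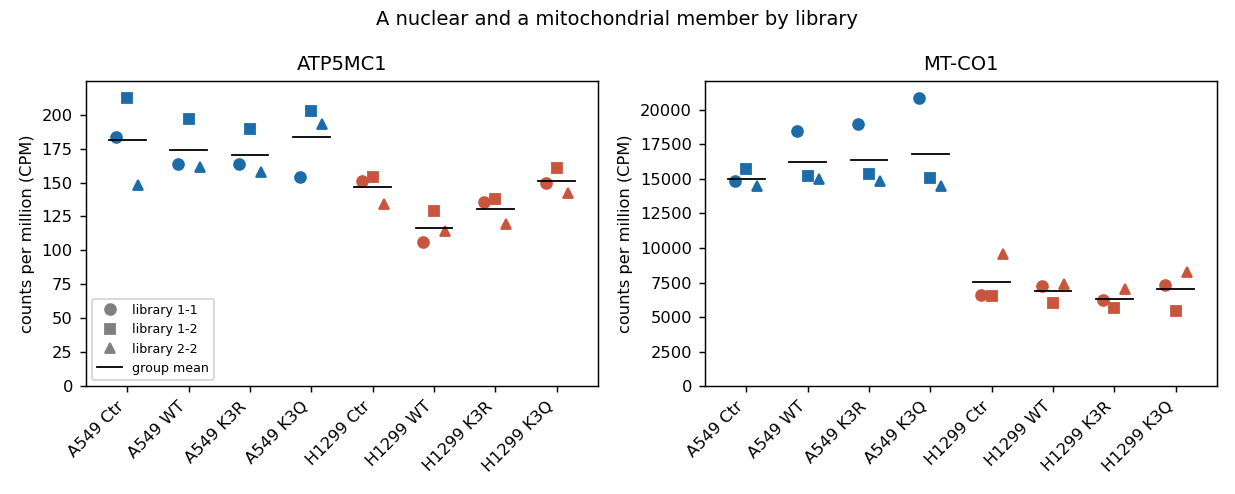
CPM of ATP5MC1 (nuclear) and MT-CO1 (mitochondrial) in each library, shaped by library position, with the group mean as a line. For ATP5MC1 the 3 H1299 WT libraries, at 106 to 129, lie below the 3 K3Q libraries, at 143 to 161; for MT-CO1 every A549 library lies above every H1299 library.

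The other nuclear members did not pass in that comparison. The nuclear median was 0.22 (30 of 35 positive) against 0.04 for the mitochondrial mRNAs and 0.00 for all genes. An unadjusted p under 0.05 was found for 13 of 48 members, all of them nuclear, and for 3296 of all 16262 genes. With the replicate block 6 passed, where 12% of all genes were called, so the count is near the background. All 6 were nuclear and higher in K3Q: ATP5MC1, the NADH-binding NDUFV1 (0.34, adjusted p = 0.0134), the complex III subunit UQCRQ (0.32, adjusted p = 0.0411) and the complex IV subunits COX4I1 (0.38, adjusted p = 0.0221), COX5B (0.44, adjusted p = 0.0148) and COX7C (0.28, adjusted p = 0.0187). Without K3Q 2-2, and with no block, 8 passed, where 5.09% of 16666 genes were called. K3Q 2-2 had a nuclear sum of 4387 CPM, against 5261 and 5216 CPM in K3Q 1-1 and 1-2. Outside the set, the call list for K3Q against WT held 3 of 77 mitochondrial ribosomal protein genes, near the 3.46% of all genes called. All 3 were higher (MRPL34 at 0.50 and MRPL11 at 0.47 among them). The list also held the RNA-stability gene TBRG4 (0.41) and the complex I assembly factor ECSIT (0.63), and none of the other subunits of complexes I, III, IV and V. Against Ctr in H1299, MRPL34 was called lower in WT (-0.55, edgeR adjusted p = 0.0140), and MRPL54 (0.79) and IDH3G (0.73) higher in K3R.

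More members were called between the biological replicates than between constructs, as were more of all genes. The mitochondrial mRNAs called had opposite directions in the 2 lines. Library 2-2 was set against library 1-2, both from batch 2, across the constructs. In A549 this used the 9 libraries of Ctr, WT and K3R, since K3Q 1-2 and 2-2 were almost the same library, and in H1299 all 12. In A549 13 members were called, all lower in replicate 2, in a background of 19.3% of 15855 genes lower and 18.9% higher. In H1299 11 were called, 9 mitochondrial mRNAs higher and 2 nuclear genes lower, where 8.6% of 16262 genes were higher and 7.66% lower. The nuclear calls, 6 of 35 members in A549 and 2 of 35 in H1299, are near the shares of all genes lower. The replicate number, as the label gives it, covers whatever differed between the preparations. Each line had a single pair of biological replicates, with the constructs as the repeats. The p-values therefore measure how alike the constructs shifted, not the spread among further replicates. The labels do not link the replicate numbers of the lines, so whether directions agree or oppose depends on the numbering. SIRT6 moved with it in both lines, higher in 2-2 by 0.37 ± 0.13 in A549 and 0.84 ± 0.18 in H1299 on the log2 scale, and its part in the shift was not tested.

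In H1299 the 13 mRNAs summed to 34653, 28705, 27265 and 30025 CPM in the 2-2 libraries of Ctr, WT, K3R and K3Q, against 24955, 23154, 21524 and 20702 CPM in the 1-2 libraries. Each 2-2 value was thus above its partner, and each 1-1 library lay between. The rise was largest in complex I mRNAs: MT-ND1 (0.72 ± 0.06, adjusted p = 1.74e-05), MT-ND6 (0.71 ± 0.10, adjusted p = 0.000529), MT-ND2 (0.64 ± 0.07, adjusted p = 8.92e-05), MT-ND5 (0.52), MT-ND4 (0.51) and MT-ND4L (0.47). MT-ND1 was at 1037, 1031, 921 and 906 CPM in the 1-2 libraries and 1801, 1599, 1575 and 1620 CPM in 2-2, with no overlap. MT-CYB (0.43), MT-CO1 (0.40) and MT-CO2 (0.30) also rose, while MT-CO3 (-0.0050 ± 0.07), MT-ND3 (0.23 ± 0.08), MT-ATP6 and MT-ATP8 did not pass. By complex, the medians were 0.52 in complex I, 0.30 in complex IV and 0.06 in complex V. COX7C (-0.28 ± 0.06, adjusted p = 0.00696) and ATP5MC1 (-0.23 ± 0.07, adjusted p = 0.0388), both nuclear, were lower, and the nuclear median was -0.14. The call of COX7C was kept in 17 of 17 alternatives and that of ATP5MC1 in 6, with adjusted p up to 0.132.

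In A549 the mitochondrial share was lower in replicate 2, from 5.61%, 5.63% and 5.66% in the 1-2 libraries of Ctr, WT and K3R to 5.09%, 5.30% and 5.36% in 2-2. The mRNAs called were MT-ND5 (-0.46 ± 0.08, adjusted p = 0.000481), MT-ATP8 (-0.35), MT-ATP6 (-0.34), MT-ND6 (-0.31), MT-CO3 (-0.26), MT-CO2 (-0.25) and MT-ND1 (-0.22), the median of the 13 being -0.22. The largest differences were nuclear. NDUFB3 (chr2:201071433-201085750, plus strand), of the complex I membrane arm, was at 27.6, 32.8 and 34.0 CPM in 1-2 and 18.3, 19.4 and 17.9 CPM in 2-2 (-0.83 ± 0.09, adjusted p = 5.01e-06). NDUFS3, a core subunit of complex I, was at 62.3, 64.6 and 58.5 CPM in 1-2 and 38.7, 43.1 and 46.2 CPM in 2-2 (-0.60 ± 0.09, adjusted p = 8.56e-05). Neither gene overlapped between the replicates. ATP5MC1 (-0.42), NDUFS1 (-0.40), SDHB (-0.31) and UQCRFS1 (-0.25) also fell. With the K3Q libraries added, 6 members passed, 4 mitochondrial and 2 nuclear, where 14.3% of 16120 genes were called. Of the calls without K3Q, that of MT-ND1 was kept in 7 of 14 alternatives. Of the 5 epithelial markers 4 were lower in A549 2-2 too, EPCAM (-0.61) and KRT8 (-0.54) the furthest. KRT19 went the other way, from 235, 249 and 249 CPM in the 1-2 libraries of Ctr, WT and K3R to 304, 288 and 278 CPM in 2-2. The part of these markers in the shift was not tested.

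**Figure D5:**
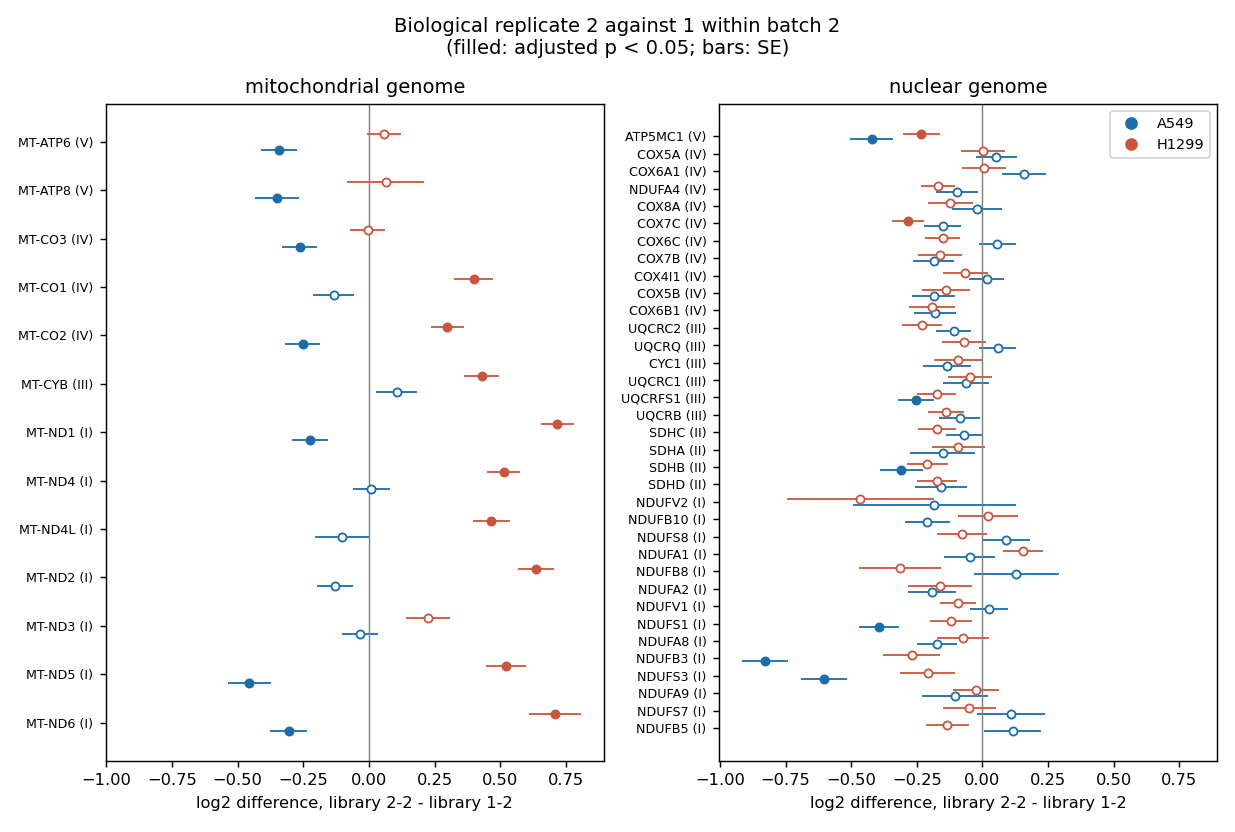
Log2 difference between biological replicate 2 (library 2-2) and 1 (library 1-2) within batch 2, for A549 (9 libraries in the fit) and H1299 (12), with SE as bars and filled points for an adjusted p under 0.05. H1299 points lie right of A549 points for all 13 mitochondrial mRNAs, whereas the nuclear members of both lines sit mostly left of 0.

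The difference between these shifts was tested on the 18 libraries of Ctr, WT and K3R, a comparison added after the data were seen. Its sign and size depend on how the replicates were numbered in each line, and its p-values rest on the constructs as repeats. All 13 mitochondrial mRNAs had a lower shift in A549 than in H1299, with a median of -0.47, and 9 passed. The furthest were MT-ND1 (-0.89 ± 0.10, adjusted p = 2.87e-05), MT-ND5 (-0.87 ± 0.12, adjusted p = 0.000227) and MT-ND6 (-0.85 ± 0.12, adjusted p = 0.000281). Of the nuclear members NDUFB3 passed (-0.49 ± 0.16, adjusted p = 0.045) and the median was 0.00. The background was 6.54% of 17828 genes lower and 6.94% higher. Leaving out A549 Ctr 1-2 took the count from 10 to 6, all mitochondrial.

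Nuclear genes for other mitochondrial functions that were called were mostly lower in replicate 2, in both lines, against 19.3% of all genes lower in A549 and 7.66% in H1299. The counts of complex I subunits are near these shares in both lines. In A549 so are those of complex V subunits, regulators, assembly factors and genes of the tricarboxylic acid cycle. Mitochondrial ribosomal protein genes were lower in replicate 2 for 35 of 76 tested in A549 and 22 of 77 in H1299, with 0 higher in either, and MRPS9 led in both (-0.72 and -0.66). Of 17 genes for mitochondrial RNA processing, 10 were lower in A549 (FASTKD5 at -0.86, PNPT1 at -0.66) and 6 in H1299 (FASTKD3 at -0.61, SLIRP at -0.32). Of the 16 other subunits of complex V, 4 were lower in each line (ATP5MC3 at -0.60 in A549, ATP5F1A at -0.29 in A549 and -0.30 in H1299, ATP5PB at -0.32 in H1299). Among 23 other complex I subunits 4 were lower in A549 (NDUFB4 at -0.37, NDUFA10 at -0.36) and 2 in H1299 (NDUFA10 at -0.25, NDUFA6 at -0.24). Of 16 regulators 3 were lower in A549 (among them PPARGC1B at -0.84 and NRF1 at -0.45) and 1 was higher, and 3 were lower in H1299 (among them GABPB1 at -0.46 and MTERF1 at -0.36). Of 47 assembly factors tested 10 were lower and 5 higher in A549 (COX19 at 0.75), and 6 lower and 1 higher in H1299 (SDHAF3 at -0.49). Of 13 genes of the tricarboxylic acid cycle 3 were lower in each line, SUCLG1 in both (-0.42 and -0.40), and OGDH (0.31) was higher in A549. The ribosomal RNA MT-RNR2, also encoded in mitochondrial DNA, differed in opposite directions in the 2 lines: -0.51 ± 0.08 in A549, 0.50 ± 0.06 in H1299, and -1.01 ± 0.10 for the difference of the shifts (adjusted p = 1.76e-05).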

How the data were processed

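The 24 libraries were made with a SMARTer mRNA-seq kit, per the labels' protocols. The deposited values are raw counts per gene symbol. They were made by the authors with STAR and featureCounts on GRCh38, after FastQC and cutadapt, per the submitters' processing notes. No source used here gives versions, the annotation release or the strand setting. The members and lists were chosen with earlier results of these data known. Levels are counts per 1e+06 of the library total (CPM). Tests used edgeR 4.0.16 (R 4.3.3; filterByExpr, TMM, quasi-likelihood F test, Benjamini-Hochberg over all genes, adjusted p under 0.05), with batch as a term: 12 libraries per line for constructs, all 24 between lines. The SE is the log2 difference over the root of F. All 48 members passed the filter. DESeq2 1.42.0 and other scalings were alternatives, and the code was tested on simulated data. Same-numbered libraries deviated together from their group means (correlations 0.163 to 0.730 over 18 pairs in H1299 and 0.431 to 0.888 over 15 in A549, with 3 pairs of A549 K3Q 2-2 lower), so block values stand beside results they change. Every called member is named, or the 3 of lowest p against Ctr where none was called; between lines, the 3 largest each way per genome in full; of each list, the 2 largest called. Promoter letters are RefSeq's, gene positions GENCODE 29's.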

Additional observations from a re-analysis of the deposited data

Results flagged for a closer look

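The shift from biological replicate 1 to 2 within batch 2 differed between the lines for 10 members by the test of the difference itself (edgeR quasi-likelihood, Ctr, WT and K3R libraries), each in 3 of 3 matched constructs. As A549 minus H1299 on the log2 scale, it was -0.89 for MT-ND1, -0.87 for MT-ND5, -0.85 for MT-ND6, -0.67 for MT-ND2, -0.53 for MT-CO2, -0.48 for MT-ND4L, -0.47 for MT-CO1, -0.43 for MT-ND4 and -0.33 for MT-ATP6. The nuclear gene among them was NDUFB3, at -0.49. MT-ND1, MT-ND2, MT-ND4, MT-ND5, MT-ND6 and MT-CO2 were called in 23 of 23 alternatives run, MT-CO1 in 22, MT-ATP6 and MT-ND4L in 14 and NDUFB3 in 7. All of these rest on a single pair of biological replicates per line, with the constructs as repeats. The labels do not link the replicate numbers of the lines, so the sign and size depend on the numbering.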

How the results depend on the processing

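For A549 K3Q against Ctr the count of members called went from 0 to 1 with the replicate block (MT-ATP8, 0.46, adjusted p = 0.0328) and to 2 with no low-count filter. Same-numbered A549 libraries deviated together at correlations of 0.431 to 0.888 over the 15 pairs without K3Q 2-2 and of 0.0953 to 0.168 over the 3 pairs with it. In H1299, WT against Ctr gave 1 with the block. K3R against Ctr gave 2 with the block, 2 with no filter and 1 with DESeq2. K3Q against WT, with 1 call, gave 6 with the block, 0 with no batch term, 0 with library totals only, 3 with no filter, 4 with DESeq2 and 0 to 8 on leaving out 1 library. The 13 calls between A549 replicates became 6 with K3Q added. The 10 calls for the difference of the shifts ranged from 6 to 13 on leaving out 1 library, with 6 without A549 Ctr 1-2. Leaving out 1 library gave 29 to 33 calls between the lines, 11 to 14 between A549 replicates and 10 to 15 between H1299 replicates. The block gave 35 between the lines and changed no other count beyond those named. The cause of these changes was not tested. With 3 libraries a group, differences of the size of the standard errors were not detectable.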
